A study of Mus musculus with 8 samples.

Results

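The genes described here are a set of macrophage and complement genes, followed through mouse epididymis and sperm. The set lists 10 genes. They were chosen by their known roles and in part by their log2 levels, being lower in the low protein than in the control epididymis array, so that contrast is a description and carries no test. Of the 10 genes, 9 were measured: C4bp, C7, C1qa, C1qb, C1qc, Lyz2, Laptm5, Cd68 and Csf1r. C3 was matched to no probe set and was not analysed here. Each of the 9 had a single probe set, and all 9 passed the filter on low values that kept 13587 of 19411 genes.

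RNA of C57/Bl6 males was read on 8 Affymetrix gene arrays, 1 array per sample. There was 1 array of epididymis from males on a low protein diet and 1 of epididymis from males on the control diet. Sperm from the caudal epididymis, over 99.5% pure by microscopy per the labels, gave 2 arrays for the low protein diet, 1 for caloric restriction and 3 for the control diet. Control and low protein males had been kept on their diet to an age of 9 to 12 weeks, and no age is stated for caloric restriction. The part of the epididymis used for the tissue arrays, and whether sperm were still in it, is not stated in the labels. Nothing in the labels ties a replicate to an animal of its own, and p-values therefore reflect the scatter among these arrays, part or all of which may be technical.

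Complement is a cascade of plasma proteins that tags and lyses cells. In its classical pathway C1q, built from A, B and C chains, recognises bound antibody, and cleavage of C4, C2 and C3 follows. The terminal components, C7 among them, then assemble the membrane attack complex, while regulators such as the C4b-binding protein, encoded by C4bp, hold the cascade back. Macrophages are a main source of C1q. Resident macrophages and other mononuclear phagocytes lie around and within the epididymal epithelium. The macrophages depend on signalling through the receptor encoded by Csf1r.

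All levels are log2 intensities, with array medians of 6.08 to 6.17. Smooth muscle markers marked the tissue. Over the 9 markers of that list the mean level was 10.29 in low protein and 10.26 in control epididymis, against 6.92 to 7.77 in the sperm arrays. Over the 8 sperm markers it was 7.21 and 7.20 in low protein and control epididymis, against 10.25 to 11.48 in sperm. Actb, one of the genes whose detection by PCR led to a sperm preparation being rejected per the labels, had levels of 12.50 in low protein and 12.67 in control epididymis, against 10.49 to 11.61 in sperm. The lowest correlation between any 2 sperm arrays over the tested genes was 0.71. Low protein sperm replicate 2 had the lowest mean of the smooth muscle markers, 6.92, and the highest of the sperm markers, 11.48. A level in bulk RNA cannot tell fewer cells of a type from less RNA per cell.

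Of 20 markers listed besides the members, 19 were matched and 16 tested. Of these 16, 3 were higher in epididymis than in sperm, 1 was lower and 12 did not pass, where 30.1% of all genes were higher and 18.4% lower, with a median change of 0.01 on the log2 scale (0.06 to 0.14 with other scalings). Adgre1, which encodes the macrophage surface protein F4/80, had levels of 5.92 in low protein and 6.45 in control epididymis, within or just below the 6.06 to 6.89 of the sperm arrays. Cd163, Ms4a7 and Spi1 lay under the filter on low values. Of 19 matched genes of other leukocytes, 14 lay under the filter and none of the other 5 passed between epididymis and sperm, the T cell gene Cd3e and the leukocyte gene Ptprc among them. The name macrophage genes is therefore used here for the members' known roles, without a claim that their signal came from macrophages.

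All 9 members were lower in the low protein epididymis array than in the control one, by 0.23 to 1.56 on the log2 scale, in part as they were chosen. The 2 arrays have no replicates, so no spread can be set beside these differences. A difference of at least 0.5 lower was seen for 5 members, C4bp, C7, Lyz2, Laptm5 and Cd68. Over the 13587 genes tested 1.04% were lower by as much, 53.2% were lower by any size and 0.81% were higher by at least 0.5. These shares are background and support nothing, since the contrast chose the members. The SD of the differences over those genes was 0.19 and their median -0.01, and the median of the members was -0.71. Just inside the size of 0.5 stood Cd68 at -0.71, and just outside it C1qa at -0.46.

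**Figure D1:**
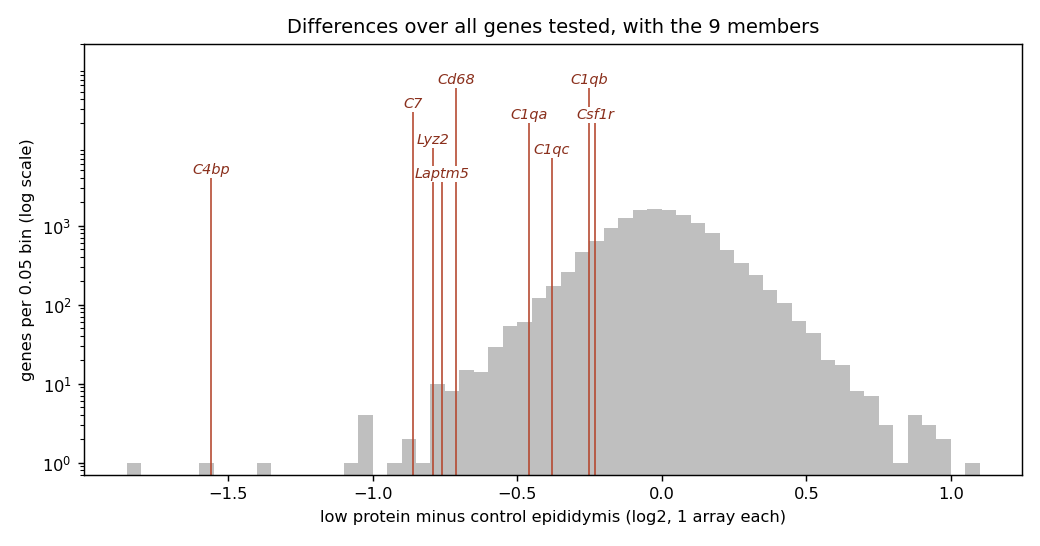
Histogram of low protein minus control epididymis differences (x axis, log2, 1 array per diet) over 13587 genes, with the number of genes per bin on a log axis; red lines mark the 9 members. All 9 lie left of 0, from Csf1r at -0.23 to C4bp at -1.56.

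Among the complement members, C4bp was the farthest from control. Its level was 6.27 in low protein epididymis, against 7.83 in control epididymis, a difference of -1.56, or 33.9% of the control intensity. Only 1 of the 13587 genes was lower by more. In sperm C4bp stood at 5.77 and 5.64 in the low protein arrays, at 5.46 in the caloric restriction array and at 5.95, 5.85 and 5.91 in the control arrays. Both epididymis arrays lay above all 6 sperm arrays, as they did for 35.6% of all genes, and the sperm arrays sat near the filter level of 5.69 and so close to the dim end of the array.

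C7, the terminal component that joins C5b and C6 before the complex enters a membrane, had a level of 9.18 in low protein epididymis, against 10.05 in control epididymis, a difference of -0.86 or 54.9% of the control intensity. In sperm it stood at 7.58 and 7.54 in the low protein arrays, 7.43 in the caloric restriction array, and 7.91, 8.17 and 8.01 in the control arrays. The epididymis arrays were again above every sperm array, and the restricted diets below every control array within sperm.

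The C1q genes, which follow one another on chromosome 4 with no other annotated gene between them, showed smaller differences. C1qa had levels of 7.23 in low protein epididymis, against 7.69 in control epididymis. C1qb had 7.0 in low protein, against 7.24 in control epididymis, and C1qc 7.69 in low protein, against 8.06 in control epididymis. The differences were -0.46, -0.25 and -0.38 on the log2 scale. The low protein epididymis level of each C1q gene lay within the range of the 6 sperm arrays, which ran from 6.78 to 7.51 for C1qa, from 6.54 to 7.21 for C1qb and from 7.05 to 7.86 for C1qc.

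Laptm5, whose product sits in lysosomal membranes of blood cells, and Cd68, a glycoprotein of macrophage lysosomes and endosomes, differed by -0.76 and -0.71 between low protein and control epididymis. Laptm5 had a level of 7.30 in low protein epididymis, against 8.06 in control epididymis, and 7.25 to 8.34 in sperm. Cd68 had 6.41 in low protein, against 7.11 in control epididymis, and 5.83 to 6.44 in sperm. For Laptm5 both tissues overlapped in full, while the control epididymis level of Cd68 was above every other array. Csf1r, the receptor for the growth factors encoded by Csf1 and Il34, had 7.18 in low protein, against 7.41 in control epididymis, and 6.91 to 7.24 in sperm. It varied least among the members, with an SD of 0.12 over the 6 sperm arrays. Over the 9 members, the control epididymis level was above every other array for 7, all but Lyz2 and Laptm5, against 25.1% of all genes, a count that holds the contrast that chose them. Csf1 itself stood at 6.44 in both epididymis arrays, and Il34 at 6.05 in low protein and 6.07 in control epididymis.

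**Figure D2:**
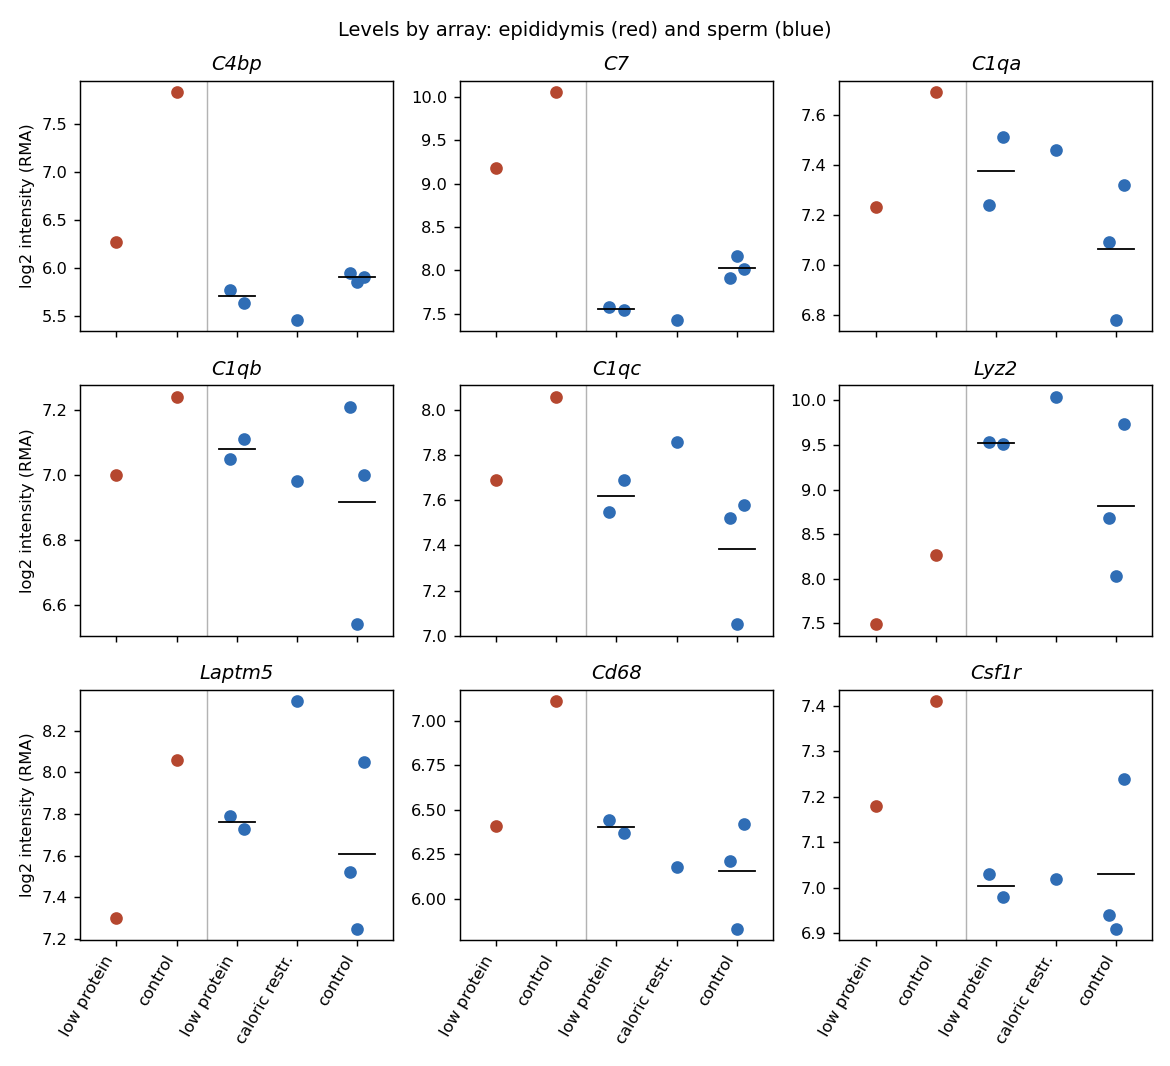
Log2 intensity (y axis, scaled for each gene) of the 9 members by group, with each point 1 array and bars the mean where a group has several arrays; epididymis is red and sperm blue. C4bp and C7 are higher in both epididymis arrays than in all sperm arrays, while Lyz2 is highest in sperm.

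Upstream sequences are shown for macrophage genes that hold a motif of a myeloid factor, and for C4bp, which was the lowest member in low protein epididymis and holds none. RefSeq (GRCm38.p6) gave a sequence for 5 of the 7 macrophage members and for C4bp and C7, while C1qa and Csf1r are named only. These are the 250 bases before the transcript start that the promoter table uses, 5′ to 3′ on the gene's strand. That start lies inside the annotated gene for Laptm5, C1qc and C4bp, so the window of Laptm5 is wholly, and those of C1qc and C4bp are in part, within the gene. Capitals stand for GAGGAA, the core of the PU box bound by the myeloid factor PU.1, read on either strand:
C1qb (chr4:136886201-136886450, - strand): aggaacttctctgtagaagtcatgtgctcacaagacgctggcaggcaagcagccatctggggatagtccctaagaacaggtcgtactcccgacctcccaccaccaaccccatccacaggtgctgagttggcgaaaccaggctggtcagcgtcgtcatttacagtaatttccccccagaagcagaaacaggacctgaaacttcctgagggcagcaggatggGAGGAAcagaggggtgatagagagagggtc
C1qc (chr4:136892915-136893164, - strand): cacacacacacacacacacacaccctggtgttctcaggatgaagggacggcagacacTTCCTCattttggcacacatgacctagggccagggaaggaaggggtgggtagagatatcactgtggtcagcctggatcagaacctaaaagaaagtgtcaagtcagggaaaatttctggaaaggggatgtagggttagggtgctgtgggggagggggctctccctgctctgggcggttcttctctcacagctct
Laptm5 (chr4:130913066-130913315, + strand): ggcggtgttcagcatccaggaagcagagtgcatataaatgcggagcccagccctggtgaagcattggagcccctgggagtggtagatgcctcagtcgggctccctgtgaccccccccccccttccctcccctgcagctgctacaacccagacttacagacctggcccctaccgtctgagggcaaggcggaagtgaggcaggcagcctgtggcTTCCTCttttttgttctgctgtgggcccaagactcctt
Cd68 (chr11:69666171-69666420, - strand): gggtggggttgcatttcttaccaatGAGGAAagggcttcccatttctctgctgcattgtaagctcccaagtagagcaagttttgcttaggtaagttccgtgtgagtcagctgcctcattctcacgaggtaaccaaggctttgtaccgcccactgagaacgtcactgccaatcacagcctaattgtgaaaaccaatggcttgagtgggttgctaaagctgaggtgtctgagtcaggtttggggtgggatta
C4bp (chr1:130661619-130661868, - strand): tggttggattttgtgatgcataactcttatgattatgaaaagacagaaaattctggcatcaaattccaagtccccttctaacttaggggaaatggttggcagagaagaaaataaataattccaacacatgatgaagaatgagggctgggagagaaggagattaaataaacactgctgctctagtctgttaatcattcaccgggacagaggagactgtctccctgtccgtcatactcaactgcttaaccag

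GAGGAA or its reverse complement was present in 4 of the 5 macrophage promoters, those of C1qb, C1qc, Laptm5 and Cd68, and in 0 of the 2 of C4bp and C7. It was present in 23.3% of all 32851 promoter windows of the same length. The first base of the match lay 30 bases before that start in C1qb, 193 in C1qc, 38 in Laptm5 and 225 in Cd68. Other motifs searched on both strands were TGAGTCA (AP-1, in Cd68 at 2 places; 4.46% of windows), TATAAA (in Laptm5 and, on the other strand, C7; 12.4% of windows) and TTGCGCAA (C/EBP, in no member; 0.164% of windows). GAGGAA overlaps none of these at the places found. The matches describe these letters only and do not show that a factor binds.

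Lyz2, the lysozyme of myeloid cells that cleaves bacterial cell walls, was the member that ran against the set's name. Its level was 7.49 in low protein epididymis, against 8.27 in control epididymis, a difference of -0.79. In sperm it was 9.53 and 9.51 in the low protein arrays, 10.04 in the caloric restriction array, and 8.68, 8.03 and 9.74 in the control arrays. Of the sperm arrays only control replicate 2 lay under the control epididymis level. Its neighbour on chromosome 10, Lyz1, best known as the lysozyme of intestinal Paneth cells, had 5.68 in low protein and 6.44 in control epididymis, and between 6.84 and 8.02 in sperm. The pair are close copies, so probes may take up RNA of both. The 100 bases before each start are shown for that likeness, with capitals for the run of 50 bases next to the start that is identical in both:
Lyz2 (chr10:117282273-117282372, - strand): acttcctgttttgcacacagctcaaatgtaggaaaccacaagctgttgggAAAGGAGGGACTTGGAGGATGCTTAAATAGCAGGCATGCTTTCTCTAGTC
Lyz1 (chr10:117292869-117292968, - strand): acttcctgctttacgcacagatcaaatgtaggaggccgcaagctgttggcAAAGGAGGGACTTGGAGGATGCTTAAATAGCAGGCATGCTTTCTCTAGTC
Of the 100 bases, 92 were the same in Lyz2 and Lyz1, and of the 250 bases before each start 152 were (60.8%).

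Between epididymis and sperm, 2 members were higher in epididymis and 1 was lower, and the other 6 did not pass. C7 was higher in epididymis by 1.83 ± 0.15 (SE; limma, adjusted p = 7.12e-05), or 3.55-fold, and C4bp by 1.29 ± 0.27 (adjusted p = 0.00447). The C7 change was 1.28 with quantile normalization and 1.26 with cyclic loess, so the size of its fold depends on the scaling. No fold is given for C4bp, since its sperm levels sat near the dim end of the array. Lyz2 was lower in epididymis, by -1.25 ± 0.45 (adjusted p = 0.0471), and Lyz1 likewise by -1.46 ± 0.33 (adjusted p = 0.00651). These are changes from all 8 arrays with tissue and diet as terms, and the tissue change rests on the 2 epididymis and 5 of the sperm arrays, as caloric restriction was fitted by its own term in 1 array. Of all genes tested 48.5% passed this comparison, 30.1% higher and 18.4% lower in epididymis (62.1% of the calls higher, against 52.2% with quantile normalization and 47.5% with cyclic loess), and the 3 of 9 members stand below that share. The same 3 were the members with an unadjusted p under 0.05, against 56.3% of all genes. No member had both epididymis arrays below all sperm arrays, against 24.8% of all genes.

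The C1q genes, Cd68, Csf1r and Laptm5 showed no difference that the test could call. The change was 0.26 ± 0.22 for C1qa, 0.13 ± 0.20 for C1qb and 0.39 ± 0.20 for C1qc (adjusted p by limma 0.346, 0.596 and 0.140). For Cd68 it was 0.51 ± 0.24 and for Csf1r 0.28 ± 0.15 (adjusted p 0.109 and 0.153). Laptm5 differed by 0.02 ± 0.26 (adjusted p 0.952). The sign turned for C1qb (-0.054), C1qa (-0.006) and Laptm5 (-0.389) with cyclic loess scaling, and for C1qb and Laptm5 with quantile normalization. The median change was 0.28 over the 9 members and 0.08 over all genes tested, and that of the members was 0.06 with quantile normalization and 0.02 with cyclic loess. It was 0.0 without the control epididymis array and 0.63 without the low protein one.

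**Figure D3:**
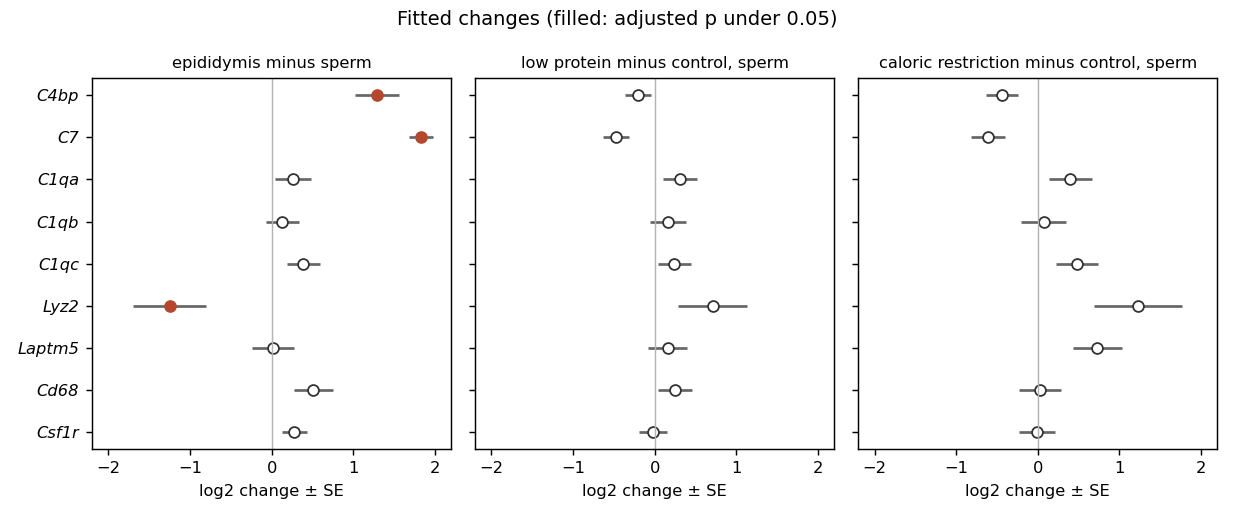
Fitted log2 changes of the 9 members (points, with bars of 1 SE) for epididymis minus sperm, low protein minus control sperm and caloric restriction minus control sperm; filled points passed an adjusted p of 0.05 by limma. C4bp, C7 and Lyz2 pass between the tissues and no member passes between diets.

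Single arrays weighed on these values. Cd68 differed by 0.003 without the control epididymis array and by 0.96 without the low protein one, where it passed (adjusted p 0.0367). C1qc differed by 0.067 and 0.683 without the same arrays, and by 0.062 with quantile normalization and 0.024 with cyclic loess. Csf1r differed by 0.168 without the control epididymis array, and by 0.087 with quantile normalization and 0.072 with cyclic loess. C4bp differed by 0.567 without the control epididymis array (adjusted p 0.0655) and by 1.93 without the low protein one, while C7 stayed between 1.62 and 2.01 whichever array was left out. The Lyz2 call was lost without the low protein epididymis array (-0.543, adjusted p 0.492), without low protein sperm replicate 1 (-1.14), and without control sperm replicates 1 (-1.32) or 3 (-1.06), and without low protein sperm replicate 2 the members called were 5, with C1qc and Cd68 added.

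Among regulators of complement, of the 5 of 12 listed that were tested, 4 were higher in epididymis and none lower, where 30.1% of all genes were higher, with a median change of 1.51 (3 higher and 1.06 with cyclic loess). Serping1, which encodes the inhibitor of the C1 proteases, was higher by 2.34 ± 0.17 (limma, adjusted p = 3.92e-05), and Cr1l, a membrane regulator of rodents also called Crry, by 2.31 ± 0.22. Clu, which encodes the chaperone clusterin that also binds the terminal complex, was higher by 1.51 ± 0.21, and Cfi, the protease for which the C4bp product is a cofactor, by 0.97 ± 0.17. The sperm mean of Cfi, 5.67, was under the filter level of 5.69, so Cfi was kept only through epididymis and its call carries no weight. Between the epididymis arrays these 4 regulators differed by -0.16 to 0.05. Serping1 had 10.40 in low protein, against 10.56 in control epididymis, and Cr1l 8.37 in low protein, against 8.32 in control epididymis.

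Many other components of the pathway were left out by the filter, which uses the mean over all 8 arrays and so also removes genes seen in epididymis alone. The regulator gene Cd59a, at 7.45 in low protein and 7.05 in control epididymis, against 4.26 to 4.66 in sperm, and the C1 protease gene C1s1, at 6.93 in low protein and 7.34 in control epididymis, against 4.65 to 5.78 in sperm, were left out in this way. Both were named after their values were seen. Of 6 terminal genes besides C7 only C8g was tested, at -0.18 between low protein and control epididymis, and the other 5, C6 and C9 among them, were under the filter. Of 13 genes that start the classical and lectin pathways 7 were tested. Colec12, a scavenger receptor of the collectin family, was higher in epididymis than in sperm by 1.05 ± 0.16, and C2, the protease of the classical C3 convertase, by 0.73 ± 0.15. C4a, a copy of C4b annotated as a pseudogene, was lower by -0.62 ± 0.21, a call lost with median centring and with quantile normalization, and the other 4 did not pass. The epididymis mean of C4a, 5.29, was under the filter level, so C4a was kept only through sperm. C4a and C4b RNA may bind the same probes, so their split is uncertain. Of the alternative pathway genes Cfp, which encodes properdin and is made by phagocytes, was lower in epididymis by -0.66 ± 0.19 and Cfb did not pass.

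Among receptors for complement fragments, C3ar1 had the lowest low protein minus control difference in epididymis. It encodes the receptor for C3a on macrophages and other myeloid cells, and stood at 5.97 in low protein, against 6.97 in control epididymis, a difference of -1.01. In sperm it ran from 5.13 in control replicate 2 to 6.01 in the caloric restriction array, and it did not pass between tissues. Of the 4 receptor genes tested only Calr, which encodes the chaperone calreticulin, was higher in epididymis, by 1.38 ± 0.31.

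The macrophage markers that passed between the tissues went both ways. Lgmn, a lysosomal protease, was higher in epididymis by 1.59 ± 0.18, the protease gene Ctss by 1.13 ± 0.20, and Mertk, a receptor for the uptake of dying cells, by 0.68 ± 0.19. Aif1, whose product is the macrophage marker Iba1, was lower by -1.56 ± 0.29 (limma, adjusted p = 0.00256). Between the epididymis arrays 15 of the 16 tested markers were lower under low protein, 3 of them by at least 0.5, with a median of -0.25, against 53.2% of all genes lower and a median of -0.01. The lowest were Fcer1g, a signalling chain of Fc receptors, at -0.63, Aif1 at -0.54 and Adgre1 at -0.53, and the highest was Itgam at 0.09. In the same arrays 8 of 9 fibroblast and matrix markers were lower too, with a median of -0.35, as were 4 of 4 endothelium markers (-0.12) and 7 of 9 genes of antigen presentation (-0.12), and 4 of 9 smooth muscle markers (0.05) and 7 of 10 epithelium markers (-0.10). The part of these cell types in the members' differences was not tested.

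**Figure D4:**
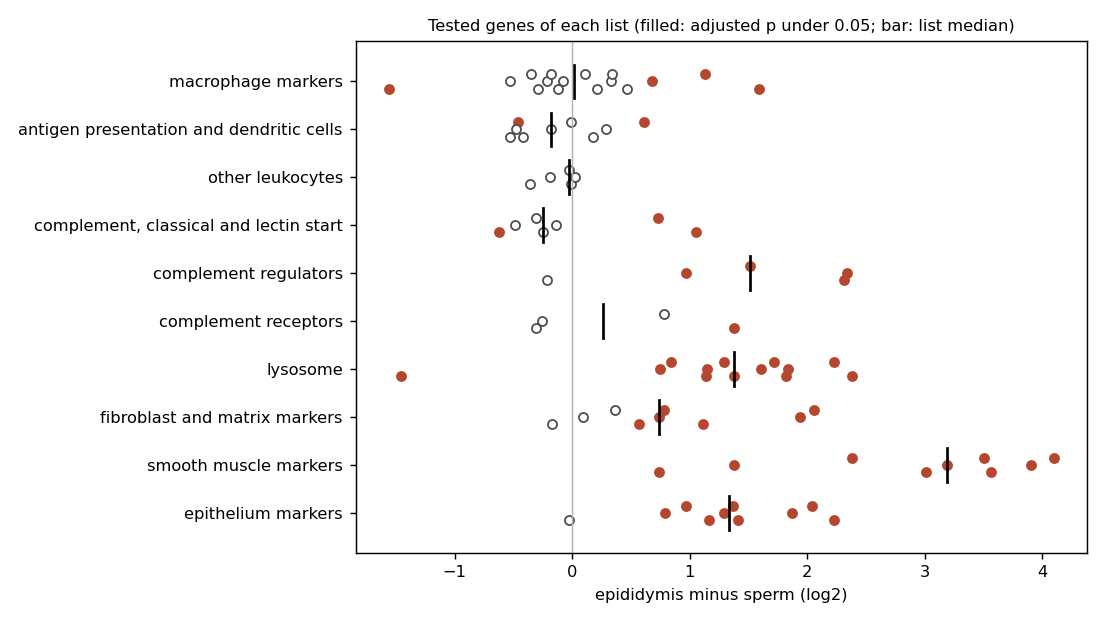
Epididymis minus sperm change (x axis, log2) of every tested gene in 10 gene lists, with filled points past an adjusted p of 0.05 by limma and a black bar at each list's median. Smooth muscle, epithelium, lysosome and complement regulator genes lie mostly right of 0, while macrophage markers spread around it with a median of 0.01.

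Of 13 lysosome genes tested, 12 were higher in epididymis and 1, Lyz1, was lower, where 30.1% of all genes were higher and 18.4% lower, with a median of 1.38 (0.87 with cyclic loess). The changes of Laptm5, Cd68 and Lyz2 were 0.02, 0.51 and -1.25.

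In sperm no member passed for any diet. Low protein against control was called for 0 of 9 members, where 0% of all genes were called by limma, in either direction, and 25.1% had an unadjusted p under 0.05. Caloric restriction against control was called for 0 of 9, with 5.56% of all genes (5.53% higher and 0.0368% lower), and the 3 arrays of both restricted diets together for 0 of 9, with 2.75% of all genes (2.72% higher and 0.0294% lower). C7 had an unadjusted p under 0.05 in each of these comparisons, Laptm5 for caloric restriction and Lyz2 for both diets together. The shares of all genes with such a p were 16.6% for caloric restriction and 26.4% for both diets together.

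C7 had the smallest p among the members under restricted diets. It averaged 7.56 ± 0.03 in low protein sperm (SD, n = 2), against 8.03 ± 0.13 in control sperm (SD, n = 3), a difference of -0.47 ± 0.16 (SE; limma, adjusted p = 0.155). Both restricted diets together gave -0.52 ± 0.15 (adjusted p = 0.0968). With cyclic loess these C7 values were -0.114 (adjusted p 0.734) and -0.226 (adjusted p 0.47). C4bp differed by -0.28 ± 0.15 there (adjusted p = 0.273). For both genes all 3 restricted arrays lay below all 3 control arrays, as they did for 18.1% of all genes, and both low protein arrays alone did so for 22.4%. No member lay above in the same way, against 15% of all genes for the 3 restricted arrays and 18.8% for low protein. Other lists moved beside them. With the 3 restricted arrays fitted together, 10 of 10 epithelium markers (median -0.54) and 8 of 9 smooth muscle markers (-0.37) had a change below 0. So had both purity screen genes, Actb and Myh11 (-0.55), and 59.4% of all genes. For 8 of 8 sperm markers the change was above 0 (0.71, 3 of them called). These are signs of group means, and single restricted arrays could lie above single control arrays. The epithelium markers' mean level was 6.98 and 6.61 in low protein, 6.72 in caloric restriction and 7.09 to 7.32 in control sperm, and the part of these lists in the C7 and C4bp values was not tested.

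Among the macrophage members the control sperm arrays were widely spread, and no difference between diets passed. Lyz2 averaged 9.52 ± 0.01 in low protein sperm (SD, n = 2) and stood at 10.04 under caloric restriction, against 8.82 ± 0.86 in control sperm (SD, n = 3). The differences from control were 0.71 ± 0.42 for low protein (adjusted p by limma 0.327) and 1.23 ± 0.54 for caloric restriction (adjusted p 0.306). The low protein value was 0.312 without control replicate 2, 1.167 without control replicate 3 and 1.208 with cyclic loess. Laptm5 had 7.79 and 7.73 in low protein sperm and 8.34 under caloric restriction, against 7.52, 7.25 and 8.05 in control sperm, with differences of 0.16 ± 0.24 and 0.73 ± 0.30. For C1qa the differences were 0.31 ± 0.21 and 0.40 ± 0.26, and for C1qc 0.24 ± 0.20 and 0.48 ± 0.26. Those of C1qb, Cd68 and Csf1r lay between -0.02 and 0.25.

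Control sperm replicate 2 had the lowest level of the 6 sperm arrays for 7 of 7 macrophage members, as it had for 11.4% of all genes. The mean level over these 7 genes was 7.52 and 7.56 in the low protein arrays and 7.70 in the caloric restriction array, against 7.31, 6.91 and 7.62 in the control arrays. The caloric restriction array was the highest of the 6 for 3 of the 7, against 17.6% of all genes. In the epididymis the same mean was 7.18 in low protein and 7.69 in control tissue, and so lay inside the range of sperm.

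**Figure D5:**
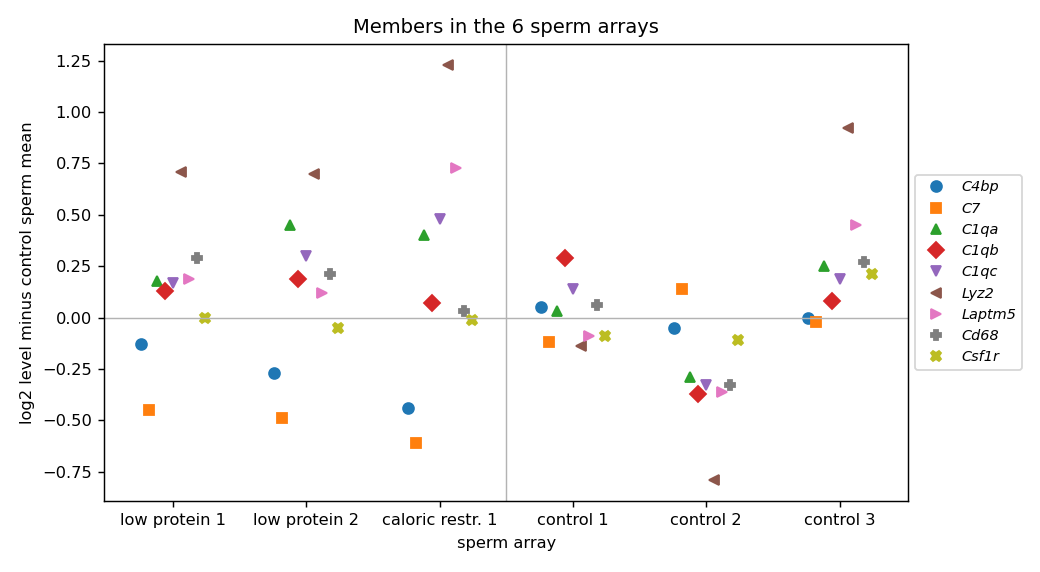
Level of each member in the 6 sperm arrays as the log2 difference from the mean of the 3 control sperm arrays (y axis), with each point 1 gene in 1 array. The macrophage members are lowest in control replicate 2, and C7 and C4bp are lowest in the arrays of the restricted diets.

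Among macrophage markers outside the set, Aif1 passed under caloric restriction. Its levels were 7.64 and 7.96 in low protein sperm and 8.65 in the 1 array of caloric restriction, against 7.08, 6.76 and 6.94 in control sperm. All 8 sperm markers had values above control in that array too, with a median of 0.65. They ran from 0.24 for Odf1 to 1.11 for Gapdhs and 1.14 for Akap4. In epididymis Aif1 was below every sperm array, at 5.49 in low protein and 6.03 in control, as were 24.8% of all genes. Over both restricted diets Aif1 was higher by 1.16 ± 0.25, where 2.72% of all genes were called higher. It was higher by 1.72 ± 0.23 under caloric restriction (limma, adjusted p = 0.00536), and low protein gave 0.88 ± 0.18 (adjusted p = 0.0847). The other 15 tested markers did not pass in any of the sperm diet comparisons. Adgre1 differed by 0.54 ± 0.21 in low protein sperm (adjusted p = 0.178), with 6.79 and 6.89, against 6.16, 6.06 and 6.67 in control sperm.

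The genes most like the members in pattern were found by Pearson's r over the 8 arrays, which share 2 tissues and the same diets, so r is given as a description. With the mean of the 7 standardised macrophage members the highest were Pigl (0.948), Fxyd5 (0.947), Trf (0.902), C3ar1 (0.900), Mir27a (0.873), Cyth4 (0.872), Cybb (0.846) and Pfdn1 (0.841). Cybb encodes the catalytic subunit of the phagocyte NADPH oxidase and Trf transferrin, the iron carrier of plasma. Cybb had 6.89 in low protein, against 7.22 in control epididymis, and in sperm 6.23 in control replicate 2 and 7.68 under caloric restriction. Most like C7 were Gamt (0.995), the beta-defensin gene Defb42 (0.992), Ints8 (0.991), Lnx2 (0.991) and the laminin gene Lamb1 (0.990). Most like C4bp were Rab9 (0.974), Mus81 (0.966), Atp10b (0.960), Unc93b1 (0.951) and Fam102b (0.947). In each of the 5 genes most like C7 both epididymis arrays were above all sperm arrays and control epididymis above low protein epididymis. This follows from their being picked for likeness to C7, which has the same pattern.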

How the data were processed

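Each array's deposited column holds log2 intensity by probe set, which the authors computed with RMA per the submitters' processing notes. Its version and annotation: not given in the sources used here. RMA as usually run equalises the arrays, so a change in total RNA is not visible. Quantile normalization of the 19411 genes, with 1 probe set each, moved the genes called between the tissues from 6594 to 5059. It was not run on all probe sets. It therefore cannot tell whether the deposited arrays share a common distribution of values, and none is assumed here. Of 33660 probe sets, 21222 carried 1 gene by the platform annotation, 1541 several and 10897 none here. Symbols were updated by gene identifier (assembly GRCm38.p6) for 21137. The probe set of highest mean stood for a gene, and genes in the lowest 30% by mean (5.69 and below) were left out. Tests used limma 3.58.1 in R 4.3.3 (lmFit and eBayes, two-sided) with Benjamini-Hochberg adjustment over 13587 genes at 0.05, and were tested on simulated data. Sperm diets were compared over the 6 sperm arrays. Caloric restriction, with 1 array, took its spread from the other sperm groups. The number of arrays limits the precision. Members, lists and tests were chosen with earlier results of these data known. All members are named, as are the genes most alike in pattern. From each complement or macrophage list the rule took up to 4 genes with the largest tissue change past the threshold. It also took the 3 lowest and the highest in low protein epididymis. Values under this rule not given above follow. Csf2ra was lower in epididymis than in sperm by -0.47 ± 0.13 (limma, adjusted p = 0.0195). Low protein minus control epididymis was -0.54 for C4a, -0.42 for C2, -0.36 for Colec12 and 0.22 for Colec11. It was -0.21 for Cfb, -0.08 for Cfp, -0.17 for Itgb2, 0.04 for Calr and 0.10 for C5ar2. For Cpn1 it was -0.12, for Clu -0.05 and for Csf2ra 0.10. Alternatives were other scalings, filters, probe set means, variance models, and each array left out.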

Additional observations from a re-analysis of the deposited data

Results flagged for a closer look

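For 6 of the 7 macrophage members both low protein sperm arrays lay above the mean of control sperm while the low protein epididymis array lay below the control one, so that the diet difference ran in opposite directions in sperm and epididymis. 14.7% of all genes did the same. That share is no like background for the 6 of the 7, since the members were chosen in part for lower levels in low protein epididymis. Of all genes tested, 53.2% were lower there by any size. Without control sperm replicate 2 the sperm difference was -0.026 for C1qb and -0.022 for Laptm5, so the opposite direction of these genes rested on that array. It was the lowest sperm array for all 7 macrophage members, so the 6 sperm differences are not independent of one another. For C1qc the low protein arrays stood at 7.55 and 7.69, against 7.52 and 7.58 in control replicates 1 and 3. The difference between the tissues was not tested, since it holds the contrast that chose the members. In sperm, low protein minus control was 0.71 for Lyz2, 0.31 for C1qa, 0.25 for Cd68, 0.24 for C1qc, 0.16 for C1qb and 0.16 for Laptm5. None of these sperm differences passed, and no member had both low protein sperm arrays above all control sperm arrays. In epididymis the same differences were -0.79, -0.46, -0.71, -0.38, -0.25 and -0.76 for Lyz2, C1qa, Cd68, C1qc, C1qb and Laptm5. Csf1r, C7 and C4bp did not go opposite ways.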

How the results depend on the processing

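No paired analysis was possible because the labels give no replicate numbers that pair samples across groups. Between epididymis and sperm the members called were 3, and 1 when the lowest 50% of genes were left out, which removed C4bp and took Lyz2 to an adjusted p of 0.0541; with 1 array left out they ran from 2 to 5. Centring took Lyz2 to 0.0567, and its adjusted p ran from 0.0108 to 0.492 over all alternatives. All genes called there ran from 2748 (without low protein epididymis) to 7236 with 1 array left out, and were 7345 with no filter. With cyclic loess the median tissue change over all genes was -0.06 in place of 0.08, and for caloric restriction -0.00 in place of -0.11. It moved the share of calls higher in epididymis from 62.1% to 47.5% (52.2% with quantile normalization). Signs turned with it for C1qa (-0.006), C1qb (-0.054) and Laptm5 (-0.389), and with quantile normalization for C1qb (-0.05) and Laptm5 (-0.288). With 1 array left out the tissue change ran from -0.149 to 0.627 for C1qa, from -0.08 to 0.326 for C1qb and from -0.462 to 0.45 for Laptm5.

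In sperm the members called were 0 under every alternative run. All genes called ran from 0 to 5155 for low protein with 1 array left out (5155 without low protein replicate 1), from 298 (without control replicate 2) to 2021 (without either low protein array) for caloric restriction (756 as reported; 503 with quantile normalization), and from 0 (when caloric restriction or a single control replicate was dropped) to 1428 (without low protein replicate 1) for restricted diets (373 as reported; 197 with the lowest 50% left out and 168 with eBayes with a trend). Csf1r turned sign to 0.061 and 0.08 for low protein (quantile normalization and cyclic loess), to 0.022 and 0.105 for caloric restriction (median centring and cyclic loess) and to 0.037 and 0.089 for restricted diets (quantile normalization and cyclic loess). With 1 array left out, signs turned for low protein in C1qb (from -0.026 to 0.306), Laptm5 (from -0.022 to 0.379) and Csf1r (from -0.08 to 0.081). They turned for caloric restriction in C1qb (from -0.121 to 0.212), Cd68 (from -0.134 to 0.165) and Csf1r (from -0.066 to 0.095), and for restricted diets in C1qb (from -0.058 to 0.275) and Csf1r (from -0.075 to 0.086). The cause was not tested. In epididymis the 9 members stayed lower under low protein in every scaling and filter run (C4bp was not tested with the lowest 50% left out), and quantile normalization gave the smallest sizes for the 5 farthest members, from -1.293 for C4bp to -0.568 for Cd68.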
